A study of Mus musculus with 12 samples.

Results

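H3K4me2 was compared between LSD1-LKO and control mouse liver at the start sites of protein-coding genes, using 4 ChIP-seq libraries of the 12 samples in the series. LSD1-LKO denotes LSD1 fl/fl mice of the C57BL/6 strain that received AAV8-TBG-Cre as adults, and the control group denotes LSD1 fl/fl mice that received AAV8-TBG-GFP. Both groups therefore carried the floxed alleles and a viral vector, and Cre was driven by the hepatocyte TBG promoter, so LSD1 was not targeted in other liver cells. The methods describe a high-fat diet after the injections for mice of both groups, and the labels of the ChIP libraries name no diet. Each group had 2 ChIP libraries, and the deposited list of a group joins the peaks of its 2 libraries.

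H3K4me2, dimethylation of lysine 4 on histone H3, marks the nucleosomes flanking active promoters and enhancers. LSD1, encoded by Kdm1a, is a flavin-dependent demethylase that removes methyl groups from mono- and dimethylated H3K4 and works in complexes with CoREST proteins and histone deacetylases. In hepatocytes, promoters and enhancers of metabolic genes carry this mark, and its breadth around a start site varies from gene to gene.

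The measure was covered length, the number of bp within 5 kb of any transcription start site (TSS) of a gene that lay inside the listed peak intervals of a library. It was computed for 21853 genes with 54361 TSSs, and 14453 genes had at least 1 covered bp. Of these, 5455 (37.7%) had a window that overlapped that of another gene, and a peak in the overlap counts for each gene. The windows around all TSSs of a gene were joined and length was not scaled to them, so genes with several TSSs can reach higher values. A peak of the first-listed library stood in a list only if a peak of the second-listed library overlapped at least 50% of it. A gene at 0 is therefore a gene with no listed peak and is not shown to lack the mark, and the spread between the 2 libraries of a list is narrowed by this selection. The covered total was 38.9 Mb and 50.8 Mb in the first- and second-listed control libraries and 38.0 Mb and 57.9 Mb in the LSD1-LKO libraries. Peak names differed in form between the listing positions in both lists, so differences were taken within a position, first-listed against first-listed and second-listed against second-listed. Reads were not used here, sequencing depth is unknown, and the labels do not say whether the libraries came from separate animals, so a p-value measures only the spread between these libraries.

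The chromatin carried the mark at hepatocyte genes. All 7 hepatocyte markers examined (Alb, Ttr, Apoa1, Serpina1a, Hnf4a, Cps1 and Asgr1) had covered bp, with a summed length of 30020 and 40716 bp in the control libraries, against 25338 and 43381 bp in the LSD1-LKO libraries. None of the 5 Kupffer cell markers and none of the 4 neuron markers had a listed peak. Of 5 endothelial markers 2 were covered, with sums of 297 and 1000 bp in control against 976 and 1766 bp in LSD1-LKO, and Stab2, Lyve1 and Pecam1 stood at 0. Of 5 stellate markers 2 were covered (1919 and 2024 bp against 1650 and 3149 bp), and Des, Colec11 and Pdgfrb stood at 0. Of 4 cholangiocyte markers 2 were covered (3281 and 4922 bp against 3691 and 5289 bp), and Krt19 and Krt7 stood at 0. Of 5 T and B cell markers Cd79a alone was covered, at 0 in both control libraries against 194 and 588 bp. Of 4 erythroid markers 2 were covered (877 and 1004 bp against 1385 and 2063 bp), and all 4 muscle markers were covered (4810 and 5718 bp against 4870 and 6748 bp). The neutrophil sum was 0 in both control libraries and 1262 and 3470 bp in LSD1-LKO, all of it at Elane, whose window also holds Cfd and Prtn3. Their part in the differences below was not tested, and in bulk liver fewer cells of a type and less of the mark per cell cannot be told apart.

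Unscaled covered length did not move in a common direction across genes. Covered length was higher in LSD1-LKO in both listed libraries at 4334 genes (30.0%) and lower in both at 4595 genes (31.8%), and these genes are called wider and narrower here. At 5470 genes the 2 libraries differed in opposite directions, and in 3988 of those the first-listed library was lower and the second-listed library higher in LSD1-LKO. The median difference between LSD1-LKO and control over all 14453 genes was -166 bp in the first-listed and 133 bp in the second-listed libraries. After scaling to the total covered length of each library, 3468 genes were wider and 6034 narrower, so the wider share among genes moving in 1 direction went from 48.5% to 36.5%. With peaks limited to a MACS p at or below 1e-05, 3351 were wider and 4685 narrower, and at a MACS q at or below 0.05, 3516 and 4723. The fold enrichment of the strongest listed peak was lower in both LSD1-LKO libraries at 37.6% of 13004 genes and higher in both at 15.8%. All directions below refer to unscaled lengths unless stated.

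**Figure D1:**
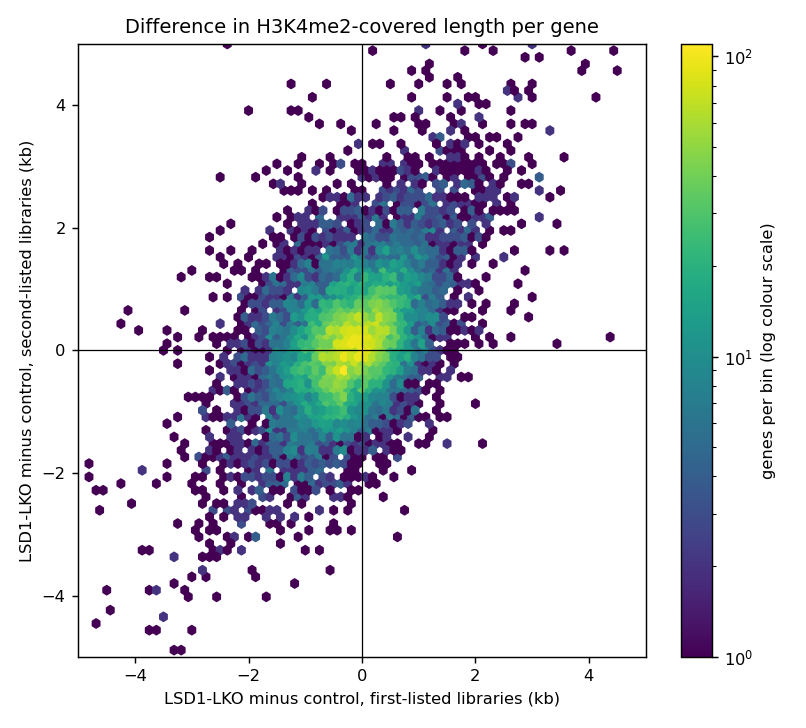
Difference in covered length (LSD1-LKO minus control, kb) per gene, with the first-listed libraries on the horizontal axis and the second-listed libraries on the vertical axis. Colour gives the number of genes per bin on a log scale, and 34 genes with a difference beyond 5 kb lie outside the axes. The upper right quadrant holds the 4334 wider genes and the lower left quadrant the 4595 narrower genes, and the densest bins lie close to the origin.

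A subset of the wider and narrower genes had groups that did not overlap. Both LSD1-LKO values exceeded both control values at 2397 genes (16.6%), and both lay below them at 2558 genes (17.7%). The space between the groups was at least 1000 bp at 330 of the former and 280 of the latter. limma with an intensity trend called 512 genes (3.54%) with more and 479 genes (3.31%) with less covered bp in LSD1-LKO at a Benjamini-Hochberg adjusted p below 0.05. Of these calls, 86.7% with more bp had both control libraries at 0 and 89.6% with less bp had both LSD1-LKO libraries at 0, where the spread within a group is 0. Without the trend limma called 0 genes, with 495 and 479 at an unadjusted p below 0.05, and an exact permutation test of 2 against 2 libraries cannot go below 0.333 for any gene.

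Most of the covered sequence was common to the groups. The listed peaks of either control library formed 34370 separate stretches, of which 8704 (25.3%) did not touch any LSD1-LKO stretch. The LSD1-LKO stretches numbered 37474, of which 11754 (31.4%) did not touch any control stretch. Stretches without a partner were short, with a median of 739 bp in control, against 817 bp in LSD1-LKO, against 1565 and 1664 bp for those with a partner. Among stretches of at least 2 kb, 212 of 8920 in control and 483 of 10162 in LSD1-LKO had no partner.

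The 12 genes per direction with the largest space between the groups are given first. They were chosen by that space, so their lack of overlap was fixed by the choice, and the same holds for the genes named from the lists below. A fit with listing position as a further term was also made, and its adjusted p-value is given where it changed a call. Tns2, a tensin of focal adhesions, had 388 and 773 bp in the control libraries, against 7984 and 10190 bp in the LSD1-LKO libraries (limma adjusted p = 0.00335). The second-listed LSD1-LKO library covered Tns2 with a stretch of 10190 bp at chr15:102099168-102109357 (mm10), of which 1245 bp lay outside the gene, 1485 bp in exons and 7460 bp in introns. In control the only stretch lay more than 4 kb from a TSS. Fam169b had 962 and 1516 bp in control, against 8417 and 10865 bp in LSD1-LKO (limma adjusted p = 0.00335), in a window that it shares with Pgpep1l.

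Several genes with large gains had no listed peak in control. Myo7a, an unconventional myosin, stood at 0 in both control libraries and at 6318 and 8166 bp in LSD1-LKO. Cd302, a C-type lectin receptor, stood at 0 and 0 against 3766 and 5970 bp. Parp3, an ADP-ribosyltransferase active in DNA repair, stood at 0 and 0 against 3258 and 3594 bp, in a window shared with Rrp9. limma adjusted p-values of these 3 genes were 0.00335, 0.00358 and 0.00335.

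Other genes with wide gains had some covered bp in control. Spin1, which encodes a reader of methylated H3K4, had 288 and 488 bp in control, against 4741 and 5343 bp in LSD1-LKO. Cobll1 had 104 and 39 bp against 4184 and 4134 bp. Pde4b, a cAMP phosphodiesterase, had 2649 and 4932 bp in control, against 8724 and 11729 bp in LSD1-LKO, which is the highest value of the 24 genes with the largest separation. The windows of Pde4b span 61080 bp around 9 TSSs, against 10001 bp around 1 TSS at Spin1. The limma adjusted p-values were 0.00335 for Spin1, 0.00335 for Cobll1 and 0.0429 for Pde4b. Txndc5, a protein disulfide isomerase of the endoplasmic reticulum, had 486 and 295 bp in control against 3820 and 6149 bp (limma adjusted p = 0.00517), and Tedc2 and Pqlc1 complete the 12 wider genes. The only control stretches of Spin1, Cobll1 and Txndc5 lay between 2278 and 4962 bp from the nearest TSS.

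The locus of Sympk, an mRNA 3′ processing scaffold, and Foxa3, a forkhead factor of hepatocytes, gained the mark in a shared window. Foxa3 had 0 and 1265 bp in the control libraries, against 5087 and 6993 bp in LSD1-LKO (limma adjusted p = 0.00425). The control stretch lay 3736 bp from the nearest Foxa3 TSS, at chr7:19017214-19019802 in an intron, whereas the widest stretch of the second-listed LSD1-LKO library covered the TSS at chr7:19021774-19025828. The 2 genes cannot be told apart within this window.

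Other genes were listed in control alone. Gata6, a zinc finger transcription factor, had 7344 and 8510 bp in control, against 0 bp in both LSD1-LKO libraries (limma adjusted p = 0.00335). Xdh, the xanthine oxidoreductase that forms uric acid, had 4471 and 3904 bp in control, against 0 bp in both LSD1-LKO libraries (limma adjusted p = 0.00335). Otc, the urea cycle enzyme ornithine transcarbamylase on the X chromosome, had 3321 and 4878 bp in control, against 0 bp in both LSD1-LKO libraries (limma adjusted p = 0.00341). The groups were separated by the whole control length at these 3 genes. The widest Otc stretches of the control libraries lay inside the gene, at chrX:10254530-10255454 and chrX:10256099-10257860, and fell wholly in introns.

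Other narrower genes kept a listed peak in LSD1-LKO. Slc25a42, the mitochondrial carrier of coenzyme A, had 4866 and 5082 bp in control, against 1079 and 1182 bp in LSD1-LKO (limma adjusted p = 0.00722). Hsd17b4, the peroxisomal bifunctional enzyme of fatty acid oxidation, had 4043 and 5559 bp against 277 and 956 bp (limma adjusted p = 0.00537). Sar1b, a GTPase of lipoprotein export from the endoplasmic reticulum, had 5787 and 6903 bp against 1144 and 2426 bp (limma adjusted p = 0.0134), in a window shared with Sec24a. Gpat4, which acylates glycerol 3-phosphate, had 9434 and 10149 bp in control, against 4178 and 6375 bp in LSD1-LKO. It did not pass the test (limma adjusted p = 0.200), but did with listing position as a term (limma adjusted p = 0.00980). Mafg, a small Maf transcription factor, which had 6677 and 7024 bp in control, against 3370 and 3262 bp in LSD1-LKO, behaved likewise (limma adjusted p = 0.0872, and 0.00717 with listing position). Mafg shares its window with Sirt7. Glyr1, Tpp2, Lyl1 and Agbl5 complete the 12 narrower genes.

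**Figure D2:**
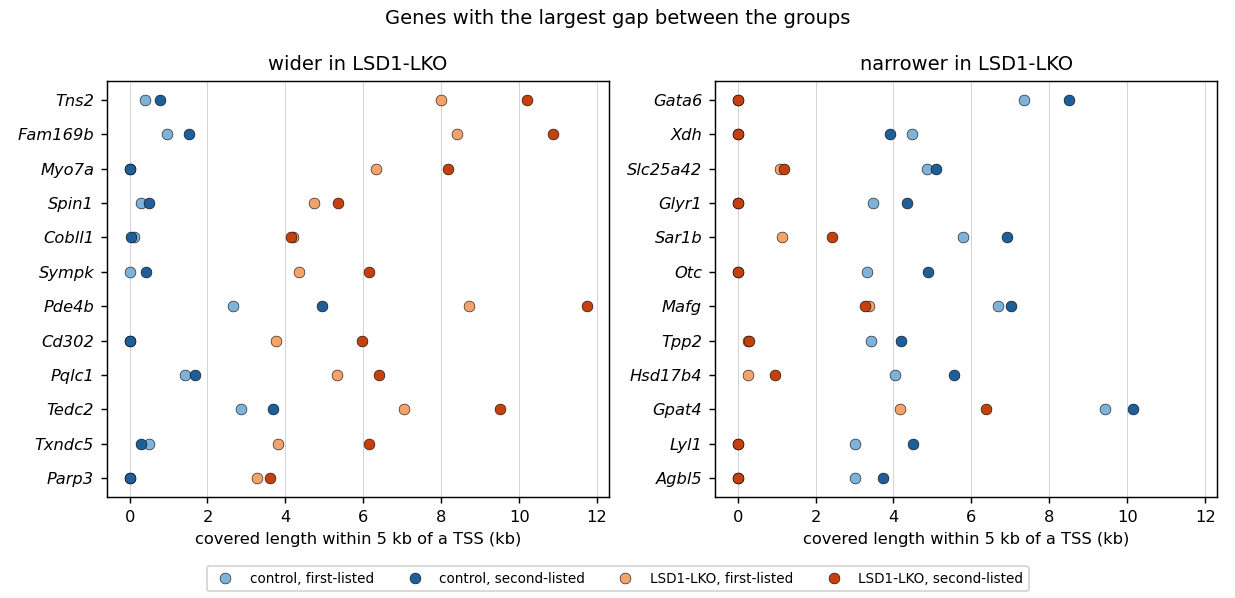
Covered length within 5 kb of a TSS (kb) in each of the 4 libraries for the 12 wider and the 12 narrower genes with the largest gap between the groups. Points are single libraries, blue for control and orange for LSD1-LKO, with the lighter shade for the first-listed library. Blue and orange points do not overlap at any gene, and 6 narrower genes have both orange points at 0.

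The targeted gene itself was examined next. Kdm1a stood at 0 in both control libraries and at 910 and 2840 bp in the LSD1-LKO libraries (limma adjusted p = 0.0300), in a window shared with Tex46. The stretches of LSD1-LKO covered the Kdm1a TSS, at chr4:136602175-136602739 in the first-listed and chr4:136600273-136603112 in the second-listed library. Histone coverage at the start site does not report whether exons were deleted, so these values do not check the knockout.

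The genes that the study shows by name or lists primers for formed a further set. Of its 32 members 10 were wider and 10 narrower, close to the shares of all genes. limma called 1 in each direction (3.125%), against 3.54% and 3.31% of all genes. Fgf21, the hormone released by the liver under metabolic stress, had 936 and 1832 bp in control, against 2285 and 3994 bp in LSD1-LKO. The groups did not overlap. The gene did not pass the test (limma adjusted p = 0.220) but did with listing position as a term (limma adjusted p = 0.0238), and its window is shared with Fut1 and Izumo1. The receptor gene Fgfr4 had 2180 and 2434 bp against 2980 and 3648 bp (limma adjusted p = 0.765). Uqcrc2, a core subunit of respiratory complex III, had 1737 and 2747 bp in control, against 0 bp in both LSD1-LKO libraries (limma adjusted p = 0.00433). Polrmt, the mitochondrial RNA polymerase, had 1148 and 1577 bp against 337 and 783 bp (limma adjusted p = 0.176), and Polg, the mitochondrial DNA polymerase, had 861 and 1852 bp against 2335 and 2886 bp (limma adjusted p = 0.361). Polrmt shares its window with Fgf22. Cox7a2, a subunit of cytochrome c oxidase, had 1078 and 1046 bp in control, against 1845 and 2562 bp in LSD1-LKO (limma adjusted p = 0.258). The groups did not overlap at Fgfr4, Polrmt, Polg and Cox7a2 and overlapped at Cyp7a1, the rate-limiting enzyme of bile acid synthesis, with 1251 and 636 bp against 491 and 756 bp.

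The promoters of 8 of these genes are printed because the listed peaks at the start site itself differed between the groups or, for Cyp2e1, Fgf21 and Otc, between libraries. Each line gives the 250 bases upstream of a RefSeq TSS in GRCm38.p6, 5′ to 3′ on the strand of the gene. Capitals mark matches on either strand to the GABP motif CCGGAAGT, the ERR motif TCAAGGTCA, the TATA box TATAAA or the CCAAT box, named by its letters.
Kdm1a: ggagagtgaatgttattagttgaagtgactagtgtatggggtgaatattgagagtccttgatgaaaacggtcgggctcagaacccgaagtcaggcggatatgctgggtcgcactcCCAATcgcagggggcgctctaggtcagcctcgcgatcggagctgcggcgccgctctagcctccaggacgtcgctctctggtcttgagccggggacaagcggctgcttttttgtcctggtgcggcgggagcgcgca
Fgf21: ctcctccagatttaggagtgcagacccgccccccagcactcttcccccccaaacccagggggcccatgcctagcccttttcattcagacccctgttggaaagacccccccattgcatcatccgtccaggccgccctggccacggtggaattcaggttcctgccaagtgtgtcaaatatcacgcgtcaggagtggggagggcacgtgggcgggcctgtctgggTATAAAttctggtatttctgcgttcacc
Tns2: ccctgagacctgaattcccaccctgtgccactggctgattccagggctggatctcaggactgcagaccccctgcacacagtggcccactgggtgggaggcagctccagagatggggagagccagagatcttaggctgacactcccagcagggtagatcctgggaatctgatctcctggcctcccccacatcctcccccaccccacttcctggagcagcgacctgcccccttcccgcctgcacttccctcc
Foxa3: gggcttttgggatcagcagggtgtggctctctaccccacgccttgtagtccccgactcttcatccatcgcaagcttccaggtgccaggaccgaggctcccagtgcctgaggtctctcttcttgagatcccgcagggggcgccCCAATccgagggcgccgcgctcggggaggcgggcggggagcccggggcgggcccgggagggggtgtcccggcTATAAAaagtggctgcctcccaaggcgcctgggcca
Lss: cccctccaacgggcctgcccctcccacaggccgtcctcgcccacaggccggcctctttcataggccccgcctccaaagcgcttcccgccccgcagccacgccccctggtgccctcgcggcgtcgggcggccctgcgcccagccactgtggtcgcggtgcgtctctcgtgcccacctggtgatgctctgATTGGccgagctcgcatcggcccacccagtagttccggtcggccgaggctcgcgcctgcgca
Otc: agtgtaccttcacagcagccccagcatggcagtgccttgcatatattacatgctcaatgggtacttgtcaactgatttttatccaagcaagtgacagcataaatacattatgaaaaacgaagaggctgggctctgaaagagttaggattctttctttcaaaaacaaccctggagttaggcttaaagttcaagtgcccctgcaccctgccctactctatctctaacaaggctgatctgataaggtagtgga
Cyp2e1: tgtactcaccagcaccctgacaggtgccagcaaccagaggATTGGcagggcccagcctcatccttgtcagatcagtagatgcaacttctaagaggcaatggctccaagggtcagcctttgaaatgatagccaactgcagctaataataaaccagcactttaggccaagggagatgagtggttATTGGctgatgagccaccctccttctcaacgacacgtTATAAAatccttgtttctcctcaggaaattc
Mrpl14: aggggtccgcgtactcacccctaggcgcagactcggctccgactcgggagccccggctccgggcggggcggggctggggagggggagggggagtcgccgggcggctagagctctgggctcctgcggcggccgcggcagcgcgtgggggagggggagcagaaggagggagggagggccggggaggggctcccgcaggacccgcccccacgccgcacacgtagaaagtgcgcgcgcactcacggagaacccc

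The windows lay at chr4:136602724-136602973 (Kdm1a), chr7:45615491-45615740 (Fgf21), chr15:102102684-102102933 (Tns2), chr7:19023540-19023789 (Foxa3), chr10:76531355-76531604 (Lss), chrX:10252055-10252304 (Otc), chr7:140763569-140763818 (Cyp2e1) and chr17:45686099-45686348 (Mrpl14). In Kdm1a, 0 of the 250 bases were covered in either control library, against 16 and 250 in LSD1-LKO. The counts in LSD1-LKO were 12 and 250 at Tns2, 103 and 250 at Foxa3, and 95 and 250 at Lss, each against 0 in both control libraries. Mrpl14 had 91 and 147 covered bases in control and 0 in LSD1-LKO, and Otc had 0 and 189 in control and 0 in LSD1-LKO. Fgf21 had 0 and 250 in control against 127 and 250 in LSD1-LKO, and Cyp2e1 had covered bases in the second-listed LSD1-LKO library alone, 217.

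The motifs were counted over 11185 promoters, 1 per gene, matched by symbol. CCGGAAGT was found in 5.68% of them, TCAAGGTCA in 0.259%, TATAAA in 6.65% and CCAAT in 35.5%. Fgf21 had a TATA box match beginning at base -28 from the TSS, and Foxa3 had a CCAAT match at -108 and a TATA box match at -36. Cyp2e1 had a TATA box match at -31. No match to the GABP or ERR letters occurred in the 8 windows, which says only that these letters are not in them.

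The gene lists were described by the number of members that were wider or narrower, beside the 30.0% and 31.8% of all genes. Lists of subunits of complexes II to V, cytochromes P450 and major urinary proteins had more narrower members than all genes. Those of fatty acid and sterol synthesis and of gluconeogenesis and glycolysis had more wider members. The lists were chosen with earlier results of these data known, and no test of a list was made.

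**Figure D3:**
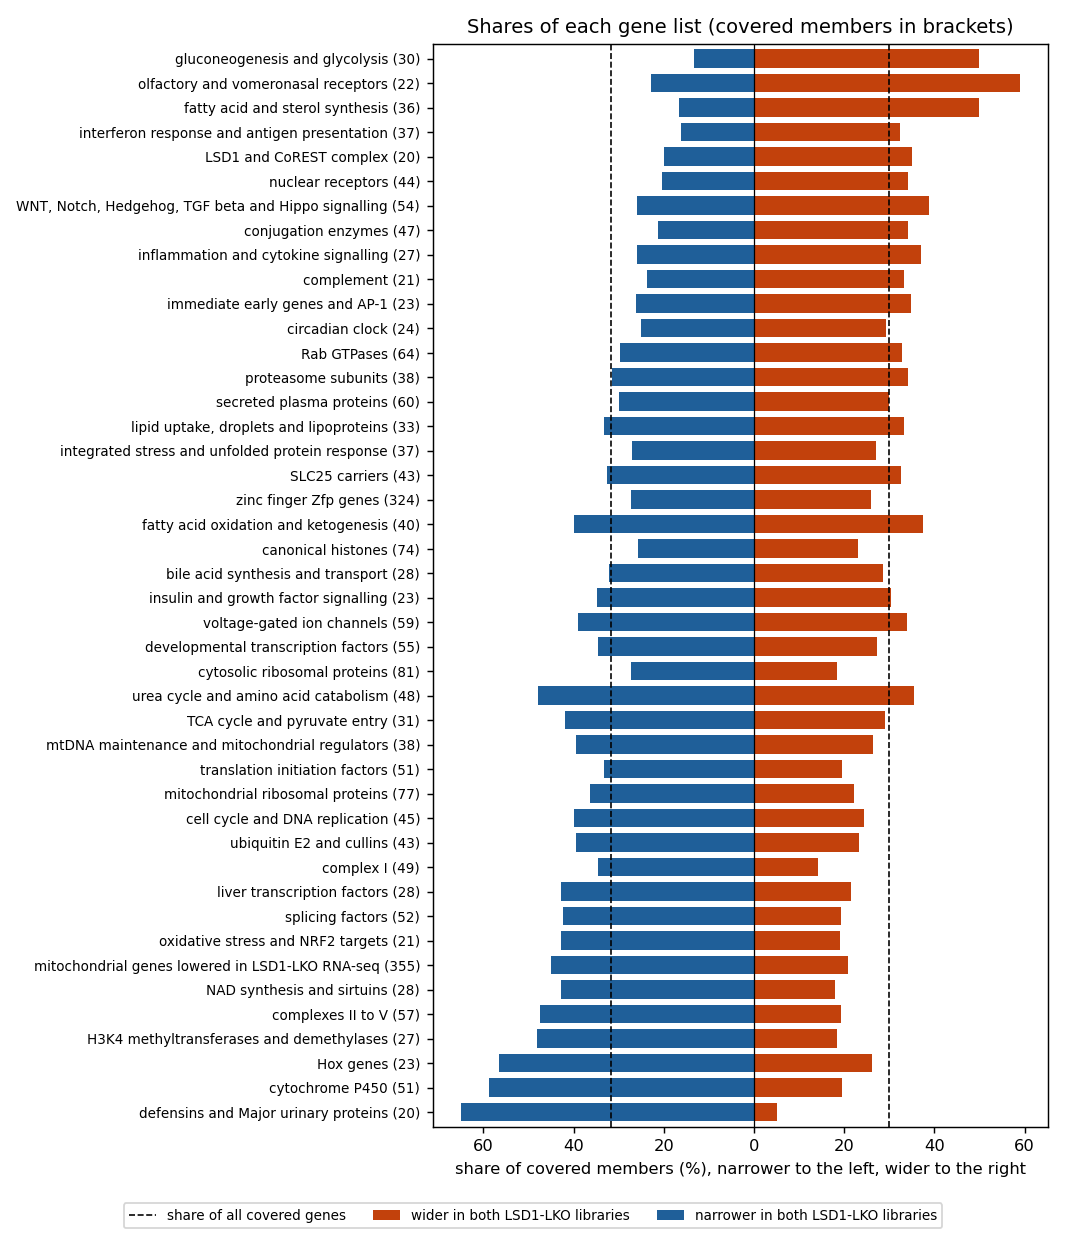
Share of covered members (%) that were wider (right, orange) or narrower (left, blue) in both LSD1-LKO libraries, for each list with at least 20 covered members, with the number of covered members in brackets. Dashed lines mark the shares of all covered genes, 30.0% wider and 31.8% narrower. Gluconeogenesis and glycolysis and fatty acid and sterol synthesis have the longest orange bars among the metabolic lists, and cytochrome P450 reaches 58.8% narrower.

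Cytochrome P450 genes, which encode the monooxygenases of drug, steroid and bile acid metabolism, were narrower more often than genes at large. Of 51 covered members of 60, 10 were wider (19.6%) and 30 narrower (58.8%), and the median difference was -504 bp in the first-listed and -417 bp in the second-listed libraries. The groups were apart in 7 members with more and 25 with less covered bp, 49.0% of the list against 17.7% of all genes in the lower direction. limma called 3 with more (5.88%) and 8 with less (15.7%), against 3.54% and 3.31% of all genes. Narrower members outnumbered wider members in each of 16 settings, including those without any of the 4 libraries in turn. Over all genes, narrower ones outnumbered wider ones in 13 of the 16. Near-identical copies within the Cyp2c, Cyp2d, Cyp3a and Cyp4a clusters can share reads, so single members of these clusters are uncertain.

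The named P450 members moved in both directions. Cyp2c68 had 2390 and 2540 bp in control, against 0 bp in both LSD1-LKO libraries (limma adjusted p = 0.00335). Cyp2c50 had 2274 and 2671 bp against 516 and 645 bp (limma adjusted p = 0.0201). Cyp2e1, which oxidizes ethanol and paracetamol, had 2785 and 2583 bp in control, against 484 and 966 bp in LSD1-LKO (limma adjusted p = 0.0282). The remaining Cyp2e1 coverage lay around the start of the gene, at chr7:140764115-140764598 and chr7:140763602-140764567. Cyp17a1, the steroid 17-hydroxylase, went the other way, with 371 and 295 bp in control, against 3339 and 4381 bp in LSD1-LKO (limma adjusted p = 0.00446). Its listed fold enrichment was also higher, 2.61 and 2.52 in control against 3.69 and 4.65 in LSD1-LKO for the strongest peak.

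Major urinary proteins, the pheromone-binding lipocalins secreted by mouse liver, were listed together with defensins. Of 20 covered members, 1 was wider and 13 narrower (65.0%), with both median differences below 0. Mup17 had 1673 and 2835 bp in control, against 0 bp in both LSD1-LKO libraries (limma adjusted p = 0.00514), and Mup8 had 2460 and 2830 bp against 778 and 889 bp (limma adjusted p = 0.0425). Mup3 had 6793 and 7325 bp against 5103 and 5213 bp and did not pass (limma adjusted p = 0.787). The Mup genes lie in a cluster of near-identical copies on chromosome 4, so reads may have been divided among them.

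Respiratory chain genes were wider less often than genes at large, and those of complexes II to V were narrower more often. In complex I, the NADH dehydrogenase, 7 of 49 members were wider (14.3%) and 17 narrower (34.7%), a narrower share near that of all genes. In complexes II to V, 11 of 57 were wider (19.3%) and 27 narrower (47.4%), with median differences of -266 and -193 bp. limma called 2 of the 57 with more (3.51%) and 1 with less covered bp (1.75%), against 3.54% and 3.31% of all genes. Besides Uqcrc2, Cox4i1, a subunit of cytochrome c oxidase, had 3115 and 3974 bp in control, against 1369 and 1601 bp in LSD1-LKO (limma adjusted p = 0.0900, and 0.0131 with listing position). Ndufa7 of complex I had 2805 and 3472 bp against 657 and 696 bp (limma adjusted p = 0.0154), in a window shared with Rps28 and Kank3. In the other direction, Cox6a1 stood at 0 in both control libraries against 1523 and 2409 bp (limma adjusted p = 0.00447), and the complex II assembly factor Sdhaf2 at 0 and 0 against 1439 and 2765 bp (limma adjusted p = 0.00789). Windows are shared by Cox4i1 with Emc8 and Gm27021, by Cox6a1 with Gatc and Triap1, and by Sdhaf2 with Cpsf7. Of the members, 34 of 49 in complex I and 40 of 57 in complexes II to V share a window, against 37.7% of all genes.

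These 2 lists kept a higher narrower share and a lower wider share than all genes in each of 16 settings. The balance within complexes II to V nonetheless depended on the libraries. Without the first-listed LSD1-LKO library, 22 members were wider and 19 narrower, while 54.9% of all genes were wider and 19.1% narrower. Without the second-listed control library, 18 were wider and 18 narrower.

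Another list holds the mitochondrial genes that the study gives as lowered in RNA-seq of LSD1-LKO liver, made from other samples. Of 356 members 355 had covered bp, of which 74 were wider (20.8%) and 160 narrower (45.1%), and the groups were apart upward in 35 (9.86%) and downward in 86 (24.2%), against 16.6% and 17.7% of all genes. The median differences were -334 and -61 bp, against -166 and 133 bp for all genes. Of the 355 covered members 174 share a window with another gene, against 37.7% of all genes. limma called 3 of these 355 genes with more and 8 with less covered bp, both below the shares of all genes, 3.54% and 3.31%. Besides Slc25a42, Hsd17b4 and Ndufa7, the largest separation was at Crls1, the cardiolipin synthase, which stood at 0 in both control libraries against 2130 and 2770 bp in LSD1-LKO (limma adjusted p = 0.00335). Narrower members outnumbered wider ones in 14 of 16 settings, against 13 of 16 over all genes. Without the first-listed LSD1-LKO library 153 were wider and 89 narrower, and without the second-listed control library 102 were wider and 95 narrower.

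Mitochondrial ribosomal proteins had 17 wider and 28 narrower members of 77 (22.1% and 36.4%). Mrpl14 had 2782 and 3601 bp in control, against 0 bp in both LSD1-LKO libraries (limma adjusted p = 0.00335), in a window shared with Tmem63b and with control stretches that ended 133 and 101 bp from the nearest annotated TSS. Mrps18a had 1131 and 1442 bp against 0 and 0 (limma adjusted p = 0.00426), and Mrps36 stood at 0 and 0 against 1234 and 1486 bp (limma adjusted p = 0.00383). Genes of NAD synthesis and sirtuins, which use or make NAD, had 5 wider and 12 narrower of 28 entries, in which Nnt is annotated under 2 gene identifiers. Of the TCA cycle genes, 9 of 31 were wider and 13 narrower.

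Genes of fatty acid and sterol synthesis were wider more often than genes at large. Of 36 members 18 were wider and 6 narrower (16.7%), with median differences of 240.5 bp and 784.5 bp. The groups were apart upward in 6 (16.7%), the share of all genes, and limma called 1 with more covered bp (2.78%), against 3.54% of all genes. The sterol pathway enzymes Lss, Sqle and Fdft1 led the list. Lss, the lanosterol synthase, stood at 0 in both control libraries and at 1802 and 2997 bp in LSD1-LKO (limma adjusted p = 0.00480). The LSD1-LKO stretches covered the Lss TSS, at chr10:76531510-76532458 and chr10:76530584-76532318. Sqle, the squalene epoxidase, had 2435 and 1980 bp against 4018 and 5123 bp (limma adjusted p = 0.119, and 0.0214 with listing position), and Fdft1, the squalene synthase, had 1640 and 2751 bp against 3696 and 5879 bp (limma adjusted p = 0.144, and 0.0120 with listing position). Pnpla3, a lipid droplet protein, had 734 and 999 bp against 1906 and 2513 bp (limma adjusted p = 0.109, and 0.0271 with listing position). Of these 4 genes Lss alone passed without the position term, and the other 3 passed with it. Without the second-listed LSD1-LKO library 6 members of the list were wider and 15 narrower, and without the first-listed control library 7 were wider and 8 narrower.

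**Figure D4:**
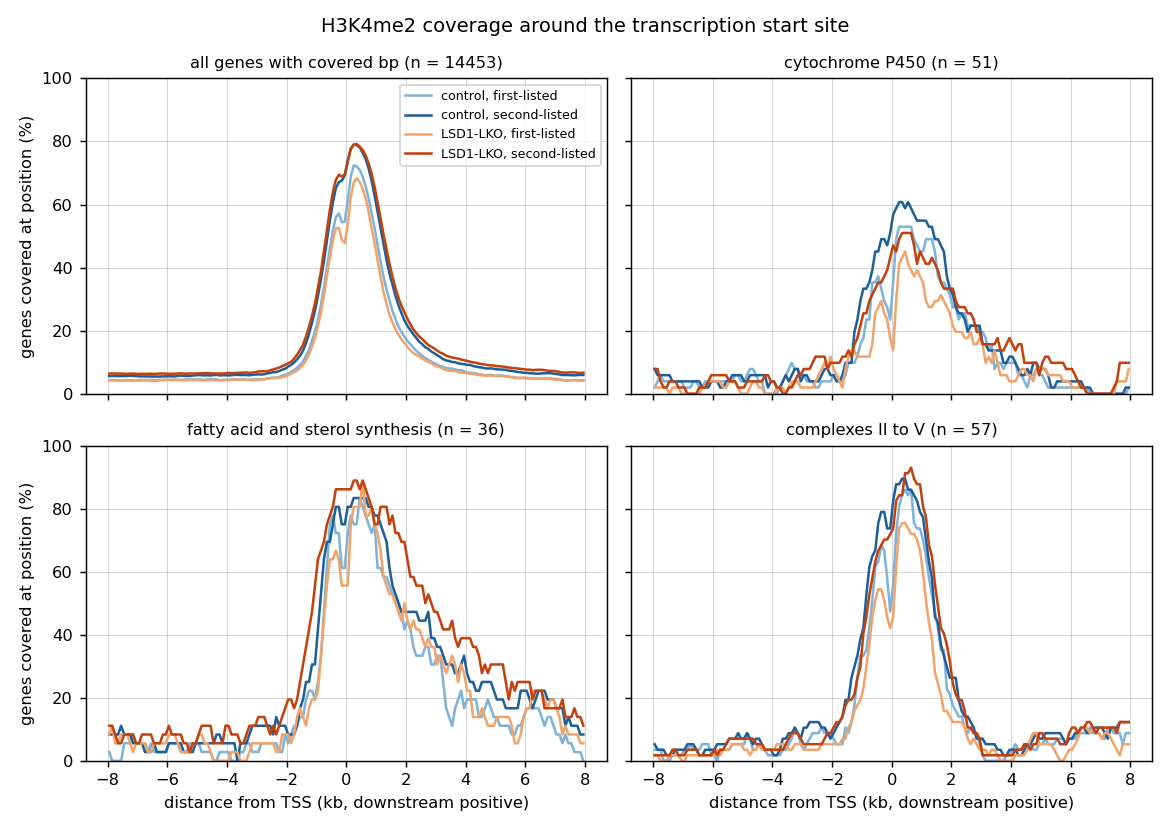
Share of genes (%) whose position at a given distance from the TSS (kb, downstream positive, 1 TSS per gene) lay in a listed peak, for all 14453 covered genes, 51 cytochrome P450 genes, 36 genes of fatty acid and sterol synthesis and 57 genes of complexes II to V. Lines are the 4 libraries, blue for control and orange for LSD1-LKO. Over all genes the curves peak 250 to 350 bp downstream of the TSS at 72.4% and 79.0% in control against 68.4% and 79.2% in LSD1-LKO, and in the P450 panel at 52.9% and 60.8% against 45.1% and 51.0%.

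Glucose metabolism showed a like pattern. Of 30 genes of gluconeogenesis and glycolysis, 15 were wider and 4 narrower (13.3%). The groups were apart upward in 6 of 30, near the 16.6% of all genes, and downward in 1 (3.33%), against 17.7% of all genes. Without the position term limma called 0 of the 30 in either direction, against 3.54% and 3.31% of all genes. G6pc, the glucose 6-phosphatase catalytic subunit, had 3934 and 4796 bp in control, against 5407 and 6594 bp in LSD1-LKO (limma adjusted p = 0.795). Pck1, which forms phosphoenolpyruvate, had 1976 and 2750 bp against 3250 and 5255 bp (limma adjusted p = 0.357, and 0.0463 with listing position). Slc2a1, a glucose transporter, had 1614 and 2152 bp against 3148 and 3285 bp (limma adjusted p = 0.403). G6pc and Slc2a1 did not pass in either fit. Without the second-listed LSD1-LKO library 7 members were wider and 11 narrower, and within 1 kb of a TSS 8 were wider and 9 narrower.

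Genes of amino acid and fatty acid breakdown moved in both directions. In urea cycle and amino acid catabolism 17 of 48 were wider and 23 narrower. Besides Otc, Mat1a, which makes S-adenosylmethionine in liver, had 7871 and 9991 bp in control, against 4802 and 6019 bp in LSD1-LKO (limma adjusted p = 0.389, and 0.0247 with listing position). Fah, the last enzyme of tyrosine breakdown, had 846 and 1949 bp against 4463 and 5090 bp (limma adjusted p = 0.0183). In fatty acid oxidation and ketogenesis 15 of 40 were wider and 16 narrower, and Acot3, a peroxisomal thioesterase, had 3158 and 4703 bp against 385 and 1332 bp (limma adjusted p = 0.0204). Bdh1, which interconverts ketone bodies, had 4237 and 4887 bp against 7262 and 8568 bp (limma adjusted p = 0.258, and 0.0188 with listing position).

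Genes of lipoproteins, plasma proteins and bile acids had wider and narrower shares near those of all genes. In lipid uptake, droplets and lipoproteins 11 of 33 were wider and 11 narrower. Apoe, the apolipoprotein that clears remnant particles, had 7490 and 9734 bp in control, against 3014 and 5486 bp in LSD1-LKO (limma adjusted p = 0.144, and 0.00600 with listing position), in a window shared with Apoc1 and Tomm40. Mttp, which loads lipid onto apolipoprotein B, had 3199 and 4373 bp against 6361 and 7218 bp (limma adjusted p = 0.212, and 0.0175 with listing position), in a window shared with Trmt10a. Of secreted plasma proteins 18 of 60 were wider and 18 narrower, and Afp, the fetal albumin relative, had 1854 and 1498 bp in control, against 0 bp in both LSD1-LKO libraries (limma adjusted p = 0.00335). Of bile acid genes 8 of 28 were wider and 9 narrower, while the groups were apart downward in 8 (28.6%), against 17.7% of all genes. Abcc2, a canalicular exporter, had 5023 and 6240 bp against 2400 and 3338 bp (limma adjusted p = 0.140, and 0.0129 with listing position).

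Chromatin regulators that act on the same residue as LSD1 were more often narrower than wider. Of 27 H3K4 methyltransferases and demethylases, 5 were wider (18.5%) and 13 narrower (48.1%), and without the second-listed control library or the first-listed LSD1-LKO library 9 were wider and 9 narrower. The list includes Kdm1a, the targeted gene itself, as 1 of the 5 wider members. Setd7 had 3052 and 2199 bp in control, against 365 and 443 bp in LSD1-LKO (limma adjusted p = 0.0121). Setd1a stood at 0 in both control libraries and at 1952 and 2856 bp in LSD1-LKO (limma adjusted p = 0.00383), in a window shared with Orai3. Among the LSD1 and CoREST complex genes 7 of 20 were wider and 4 narrower, with Kdm1a again 1 of the wider members. Rcor1, which encodes CoREST, had 390 and 2206 bp against 3519 and 5046 bp (limma adjusted p = 0.0476), and Gfi1, a repressor that recruits LSD1, had 2199 and 3560 bp against 650 and 1465 bp (limma adjusted p = 0.115, and 0.0131 with listing position).

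Hox genes, which encode positional homeobox factors, were narrower in 13 and wider in 6 of 23 covered members of 39. Hoxa4 had 1559 and 1800 bp in control, against 0 bp in LSD1-LKO (limma adjusted p = 0.00335), Hoxb4 had 1045 and 1304 bp against 0 (limma adjusted p = 0.00451), and Hoxb5 had 895 and 1199 bp against 0 (limma adjusted p = 0.00604). Neighbouring Hox windows overlap in 21 of these members, so they are not separate observations. Among other developmental factors Pax8 stood at 0 in both control libraries against 2992 and 4311 bp (limma adjusted p = 0.00356), and 15 of 55 were wider and 19 narrower. Of 28 liver transcription factors, 6 were wider and 12 narrower, and Cebpb, a factor of the acute phase and of gluconeogenesis, had 2759 and 3624 bp in control, against 5700 and 6762 bp in LSD1-LKO (limma adjusted p = 0.130, and 0.0114 with listing position).

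Stress, redox and interferon genes differed among themselves. Of 21 oxidative stress and NRF2 targets, 4 were wider and 9 narrower, and Nqo1, a quinone reductase, had 1531 and 2634 bp in control, against 0 bp in both LSD1-LKO libraries (limma adjusted p = 0.00556). Of 37 covered genes of the interferon response and antigen presentation, 12 were wider and 6 narrower. The antiviral gene Rsad2 stood at 0 in both control libraries against 1627 and 2611 bp (limma adjusted p = 0.00456), and Ifit2 at 0 and 0 against 1007 and 2512 bp (limma adjusted p = 0.0177). Of 37 genes of the integrated stress and unfolded protein response, 10 were wider and 10 narrower. Creb3l3, a membrane-bound liver factor that activates Fgf21, stood at 0 in both control libraries against 776 and 840 bp (limma adjusted p = 0.00958), and Atf4 had 5342 and 6666 bp against 3939 and 3993 bp (limma adjusted p = 0.547). Creb3l3 shares its window with Map2k2, and Atf4 with Rps19bp1.

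The X chromosome carried an excess of narrower genes. Of 363 covered genes on it, 94 were wider (25.9%) and 168 narrower (46.3%), whereas 30.1% and 31.4% of 14087 autosomal genes were wider and narrower. Among the autosomes the narrower share lay between 27.0% on chromosome 8 and 38.5% on chromosome 18. Mean covered length on the X chromosome was 1014 and 1538 bp in the control libraries, against 748 and 1370 bp in LSD1-LKO, lower than on the autosomes in each library. limma called 18 X-linked genes with more and 51 with less covered bp. On the Y chromosome, Ddx3y and Kdm5d were listed in control alone and Uty in LSD1-LKO alone, with at most 6 listed peaks on that chromosome in a library. Without the X chromosome the genome held 4240 wider and 4427 narrower genes.

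**Figure D5:**
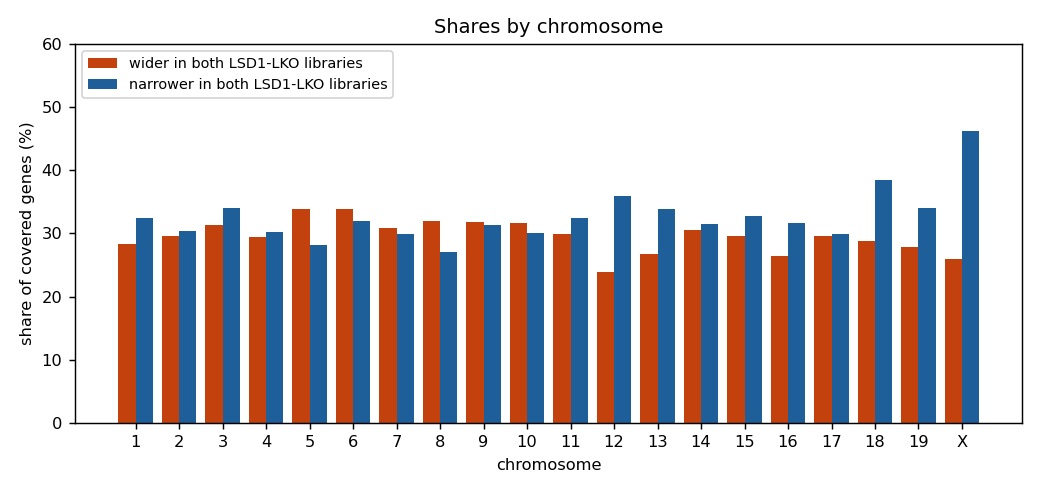
Share of covered genes (%) that were wider (orange) or narrower (blue) in both LSD1-LKO libraries, for the autosomes and the X chromosome, with the Y chromosome and its 3 covered genes left out. Of those drawn, the X chromosome has the highest blue bar, 46.3%, and the autosomes lie between 27.0% and 38.5%.

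The wider and narrower genes were also described by where the length lay and by peak strength. In the wider genes the median difference within 1 kb of a TSS was 208 bp in both positions, and that between 1 and 5 kb was 208 and 358 bp. In the narrower genes the corresponding medians were -320 and -175 bp within 1 kb and -232 and -230 bp beyond it. The fold enrichment of the strongest listed peak, a ratio over the control library, was compared at 13004 genes with covered bp in all 4 libraries. The median ratio of LSD1-LKO to control was 0.895 and 0.942 over these genes, 0.986 and 0.971 in the wider genes and 0.849 and 0.908 in the narrower genes. A stronger peak in both LSD1-LKO libraries was listed at 21.9% of the wider genes, against 15.8% of all genes, and a weaker peak in both at 29.8%, against 37.6%. Weaker peaks were thus more frequent than stronger ones among the wider genes too.

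LSD1 occupancy was taken from the list of 2 LSD1 ChIP libraries of wild-type liver. A listed LSD1 peak lay within 5 kb of a TSS at 6104 of the 14453 genes (42.2%), at 40.9% of the wider and at 40.3% of the narrower genes. Among genes with an LSD1 peak 29.0% were wider and 30.3% narrower, and among the 8349 genes without one 30.7% and 32.9%. The limma calls carried an LSD1 peak less often, 21.9% of those with more and 14.6% of those with less covered bp, and these genes were mostly at 0 in the other group. Each of the 12 wider genes with the largest gap had LSD1 coverage in its window, from 283 bp at Cd302 to 1703 bp at Tns2. Of the 12 narrower genes, Gata6, Xdh, Mafg, Hsd17b4 and Gpat4 had LSD1 coverage, of 1653, 847, 1122, 360 and 1425 bp. Otc, Slc25a42 and the rest of these 12 had none listed. All were chosen by the gap, and this contrast was not tested. Among other genes named above, Lss, Cyp17a1 and Uqcrc2 had 645, 808 and 622 bp, and Fgf21, Cyp2e1 and Kdm1a had none listed.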

How the data were processed

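Livers of control and LSD1-LKO mice were profiled by H3K4me2 ChIP-seq, with 2 ChIP libraries per group. Per the methods, the authors mapped reads to mm10 with Bowtie 2 and called narrow peaks per library with MACS against a control library, which the labels call input without antibody and the methods IgG. They joined the peaks of each group with bedtools 2.25.0. The deposited lists give positions, the fold enrichment, a ratio to the control library, and the −log10 p-value and −log10 q-value of MACS. Listed p-values reached 0.0480 and 0.0486, and 12 per-library columns of scores and summits were not used. Depth is not known.

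Intervals were merged per library and intersected with windows of 5 kb on either side of the TSSs of protein-coding genes (GENCODE vM21), and no peak lay beyond the GRCm38.p6 chromosome ends. Covered bp was tested with limma 3.58.1 in R 4.3.3 with an intensity trend and Benjamini-Hochberg adjustment. This fit was tested on data simulated from genes covered in all 4 libraries. Genes with a whole group at 0, which made up most calls, were not part of that test. Python 3.11.15, numpy 2.4.6, pandas 2.3.3 and matplotlib 3.10.9 were used. Genes at 0 in every library were left out.

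The members and the 55 gene lists were chosen with earlier results of these data known. The genes named are the 12 with the largest gap between non-overlapping groups per direction, up to 4 per list, and genes that the study shows or lists primers for. Marker genes and genes named only as listed in 1 group were named besides these. Windows of 1, 2 and 10 kb, 1 TSS per gene, MACS thresholds, scalings, filters, a term for listing position, crossed listing and leaving out each library were tried as alternatives. A MACS p at or below 0.01, genes covered in all 4 libraries and leaving out the X chromosome were chosen after seeing the data.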

Additional observations from a re-analysis of the deposited data

How the results depend on the processing

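Of 18 alternatives, 13 gave a count of wider genes and 12 a count of narrower genes within 1.5 times the reported 4334 and 4595. Crossing the listing positions gave 2767 and 2954, a difference of at least 500 bp in both positions gave 1535 and 1617, and counting only bases covered in both libraries of a list gave 8230 narrower genes. Leaving out 1 library at a time gave 2584 to 7938 wider and 2752 to 8194 narrower genes, with the lowest wider count without the second-listed LSD1-LKO library and the highest without the first-listed LSD1-LKO library.

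The limma calls, 512 with more and 479 with less covered bp, were less stable. With windows of 1 kb and without the trend 0 genes passed in either direction, with 782 and 856 genes at an unadjusted limma p below 0.05 for the former and 495 and 479 for the latter. A MACS p at or below 1e-05 gave 849 and 1461 calls, a MACS q at or below 0.05 gave 952 with less, scaling by total covered bp 886 and 949, and quantile normalization 928 and 865. Of the 991 reported calls, 264 also passed at that MACS p and 470 at that MACS q. In 63.1% of control and 69.7% of LSD1-LKO entries at least 1 of the 2 peaks had a MACS p above 1e-05. A mean of at least 1000 bp left 155 and 94 calls, and genes covered in all 4 libraries left 72 and 43. Leaving out 1 library gave 175 to 777 calls with more and 101 to 727 with less, where the lone library of a group was assumed to vary like the other group. No paired analysis was possible because the lists carry no replicate number. Listing position as a term could be fitted and gave 674 and 558 calls, and the 2 fits shared 815. The causes were not tested.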

Other observations

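Further lists are given by their counts, beside 30.0% wider and 31.8% narrower among all genes, with no test. Of all genes limma called 3.54% with more and 3.31% with less covered bp. Of 22 covered olfactory and vomeronasal receptors, out of 1465 annotated, 13 were wider and 5 narrower, and 12 of them shared a window with another gene. Of 54 genes of WNT, Notch, Hedgehog, TGF beta and Hippo signalling, 21 were wider and 14 narrower. In this list Gli1, a transcriptional effector of Hedgehog signalling, had 361 and 1156 bp in control against 2625 and 3448 bp in LSD1-LKO (limma adjusted p = 0.0285). Of 17 covered collagen genes 6 were wider and 3 narrower, and limma called 4 with more covered bp (23.5%) and 0 with less. Of 59 covered voltage-gated ion channel genes 20 were wider and 23 narrower, and limma called 5 with more (8.47%) and 11 with less (18.6%). Both control libraries were at 0 at 8 of these ion channel genes and both LSD1-LKO libraries at 13. The counts were 5 and 2 for the collagen genes, and 727 and 669 of all 14453 genes. The spread within such a group is 0. Of 324 zinc finger Zfp genes 84 were wider and 88 narrower, with 10 (3.09%) and 4 (1.23%) limma calls, both below the shares of all genes.

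Housekeeping lists differed from each other. Of 52 splicing factor genes 10 were wider and 22 narrower, although Hnrnpdl, an RNA-binding protein, had 388 and 588 bp in control against 3394 and 5555 bp in LSD1-LKO (limma adjusted p = 0.00791). Hnrnpdl shares its window with Enoph1. Of 51 translation initiation factor genes 10 were wider and 17 narrower, and of 81 cytosolic ribosomal protein genes 15 were wider and 22 narrower. Of 45 cell cycle and DNA replication genes 11 were wider and 18 narrower. Nuclear receptors went the other way, with 15 of 44 wider and 9 narrower, as did conjugation enzymes, with 16 of 47 wider and 10 narrower. Of 64 Rab GTPase genes 21 were wider and 19 narrower, and of 38 proteasome genes 13 were wider and 12 narrower.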
